A study of Mus musculus with 6 samples.

Results

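The microRNA miR-126a was followed through its 2 mature strands, mmu-miR-126a-3p and mmu-miR-126a-5p, which are cut from the 3′ and 5′ arms of 1 hairpin. They were taken by name as 2 of the 984 mature miRNAs counted in the myocardium of mice. Small RNA had been sequenced from 3 libraries at a post-mortem interval, the time from death to sampling, of 6 d and from 3 libraries at 0 h. All 6 came from myocardial tissue, with RNA extracted by Trizol and libraries made with a NEBNext small RNA kit, and the labels name no strain, age or treatment. The labels do not tie the libraries to separate animals, so p-values measure the spread between these libraries, which may be technical.

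A miRNA hairpin is cut into a duplex of its arms, and usually 1 strand is loaded into Argonaute to repress mRNAs while the other is discarded. The miR-126 hairpin is among the best known endothelium-enriched miRNA loci of vertebrates and lies in an intron of Egfl7, a gene for a protein secreted by endothelial cells. Its 3p strand represses Spred1 and Pik3r2, which restrain signalling downstream of vascular endothelial growth factor, and loss of miR-126 in mice leaves vessels leaky. The 5p strand represses Dlk1, an inhibitor of Notch1, in mouse endothelium. Platelets and blood-forming progenitors also contain miR-126, so the strands mark endothelium without being exclusive to it.

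In RefSeq (GRCm38.p6), Mir126a lies on the plus strand at chr2:26591357-26591429. GENCODE, on the same assembly, places it inside Egfl7 (chr2:26580014-26593120, plus strand). Of 9 Egfl7 transcripts spanning the hairpin, 8 have it in an intron, and for 6 of these the intron runs between an exon that ends at 26591063 and an exon that starts at 26591664. The remaining transcript, Egfl7-206, is annotated as a retained intron and includes the hairpin in an exon. These positions come from the reference and not from the deposited files, and the authors' build is not given in the sources used here. RefSeq had a mature sequence for 1 of the 2 strands, miR-126a-3p. It is shown with its seed, bases 2 to 8, in capitals, followed by the hairpin with the 3p strand in capitals and by the antisense miR-126b-5p with the bases that lie opposite miR-126a-3p in capitals.
miR-126a-3p: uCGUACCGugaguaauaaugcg
Mir126a hairpin: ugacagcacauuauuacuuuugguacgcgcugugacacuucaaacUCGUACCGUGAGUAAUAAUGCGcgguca
miR-126b-5p: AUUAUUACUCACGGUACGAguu

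The 3p strand occupied bases 46 to 67 of the 73-base hairpin. In the minimum free energy structure predicted by RNAfold (-31.2 kcal/mol), 19 of its 22 bases were paired, with bases 7 to 27 of the opposite arm. Of the 1679 mature mouse miRNAs named in the RefSeq table, 0 others carried its 7-base seed, so no seed family was formed. Mir126b is annotated on the minus strand of the same site, and miR-126b-5p overlaps miR-126a-3p by 19 bases. It had 1 read in 6 d replicate 2 and 0 reads in each of the other 5 libraries, where the limit that a count of 0 allows is 3 reads.

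The libraries held between 617069 and 1889594 miRNA reads at 6 d and between 4468547 and 7906557 at 0 h. The deposited values are counts in 0 h replicate 1 and log2 values in the other 5 libraries, and all were put on 1 scale, called normalised CPM here, which is reads scaled to a library total of 1000000 and then divided by a library factor between 0.760 and 1.80. The largest factor belonged to 6 d replicate 3, which lowers its normalised values most. The markers of heart muscle, miR-1a-3p, miR-133a-3p, miR-208a-3p and miR-499-5p, together made 20.4% to 44.6% of the reads at 6 d and 22.8% to 37.4% at 0 h. Nearly all of this was miR-1a-3p, at 19.8% to 44.3% at 6 d and 22.3% to 37.1% at 0 h. The means of miR-133a-3p, miR-208a-3p and miR-499-5p were 2270, 79.2 and 983 normalised CPM at 6 d. At 0 h they were 838, 202 and 2841. All these markers were thus detected, but their sum mainly reflects miR-1a-3p. Whether they come from heart muscle alone was not tested.

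mmu-miR-126a-3p stood at rank 5, 6 and 6 among all miRNAs in the 6 d libraries, and its level was lower there than in every 0 h library. Its level was 34088, 26358 and 24644 normalised CPM in 6 d replicates 1, 2 and 3, against 56304, 71219 and 87560 normalised CPM in 0 h replicates 1, 2 and 3. The highest 6 d library thus lay below the lowest 0 h library. The mean was 28363 ± 5031 normalised CPM at 6 d and 71694 ± 15633 at 0 h (SD, n = 3 each). On the log2 scale it fell by 1.33 ± 0.32 (SE, limma adjusted p = 0.0095), or to 0.398 of the 0 h level with a 95% interval of 0.244 to 0.649. A call is a limma adjusted p under 0.05, and 37.9% of the 470 miRNAs tested were called, with 21.9% lower and 16% higher at 6 d (103 and 75 miRNAs, or 40 and 83 with library totals alone). The groups did not overlap for 50.6% of the tested miRNAs, and for 30.9% all 6 d libraries lay below all 0 h libraries. With edgeR on the recovered reads the log2 fold change was -1.20 (adjusted p = 0.023), where 41.6% of 363 miRNAs were called, 19.6% as lower and 22% as higher. In bulk tissue, fewer endothelial cells and less of the miRNA per cell cannot be told apart.

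As a share of reads, the quantity free of any library factor, miR-126a-3p made 2.83%, 2.85% and 4.43% of all miRNA reads in 6 d replicates 1, 2 and 3, against 5.18%, 5.41% and 7.77% in 0 h replicates 1, 2 and 3. These rest on 53555, 19915 and 27311 reads at 6 d and on 231304, 428126 and 567078 at 0 h. The Wilson 95% interval of the share was 4.37% to 4.48% in 6 d replicate 3, the highest of its group, and 5.16% to 5.20% in 0 h replicate 1, the lowest of its group, and covers counting error only. The shares of the groups did not overlap, with means of 3.37% ± 0.92 at 6 d and 6.12% ± 1.43 at 0 h (SD, n = 3 each). An exact two-sided permutation test gave p = 0.1, the smallest that 3 against 3 libraries allow, and 0.13 when adjusted over the 4 share measures tested. Scaled by library totals alone, the log2 fold change came to -0.87 and missed the threshold (limma adjusted p = 0.11). Over 18 other choices of scaling, test, filter, pseudocount, depth and libraries the adjusted p ranged from 0.0024 to 0.11 and passed in 17. In further fits added after seeing the data, each leaving out 1 library, it passed in 3 of 6 with edgeR (adjusted p up to 0.072) and in 1 of 6 with limma on library totals alone (adjusted p up to 0.27).

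mmu-miR-126a-5p did not follow its partner strand. Its level was 989, 841 and 635 normalised CPM in 6 d replicates 1, 2 and 3, against 617, 826 and 1088 normalised CPM in 0 h replicates 1, 2 and 3. The groups overlapped over most of their range, with 821 ± 178 normalised CPM at 6 d and 844 ± 236 at 0 h (SD, n = 3 each). Between the intervals it differed by -0.02 ± 0.34 on the log2 scale (SE, limma adjusted p = 0.96), which is no call, and the 95% interval of -0.78 to 0.74 leaves room for a change in either direction. Its share of all miRNA reads was 0.0822%, 0.0908% and 0.114% in 6 d replicates 1, 2 and 3, against 0.0567%, 0.0628% and 0.0965% in 0 h replicates 1, 2 and 3. By share the 6 d libraries stood mostly higher, but 0 h replicate 3 lay among them (exact two-sided permutation p = 0.3, n = 3 each). The sign of its change depended on the scaling, at 0.44 with library totals alone and 0.20 with RLE size factors, both not past the threshold.

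With miR-1a-3p, the most abundant miRNA, left out of the total, the share of miR-126a-5p was 0.148%, 0.136% and 0.142% in 6 d replicates 1, 2 and 3, against 0.0780%, 0.0998% and 0.124% in 0 h replicates 1, 2 and 3. On that total all 6 d libraries lay above all 0 h libraries for miR-126a-5p (exact two-sided permutation p = 0.1, the smallest possible). For miR-126a-3p they lay below them, with 4.96% ± 0.63 at 6 d and 8.57% ± 1.44 at 0 h (SD, n = 3 each). How many of all miRNAs separated on that total was not counted. On the deposited scale the groups did not overlap for 50.6% of the tested miRNAs, so separation alone is common here.

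The scale of the libraries moved both strands alike. Over the 470 tested miRNAs the median log2 fold change was -0.33 on the scale as deposited, 0.02 with library totals and -0.17 with RLE size factors. Relative to that median, miR-126a-3p stood at -1.0, -0.89 and -0.94 on these scales and miR-126a-5p at 0.31, 0.41 and 0.37.

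**Figure D1:**
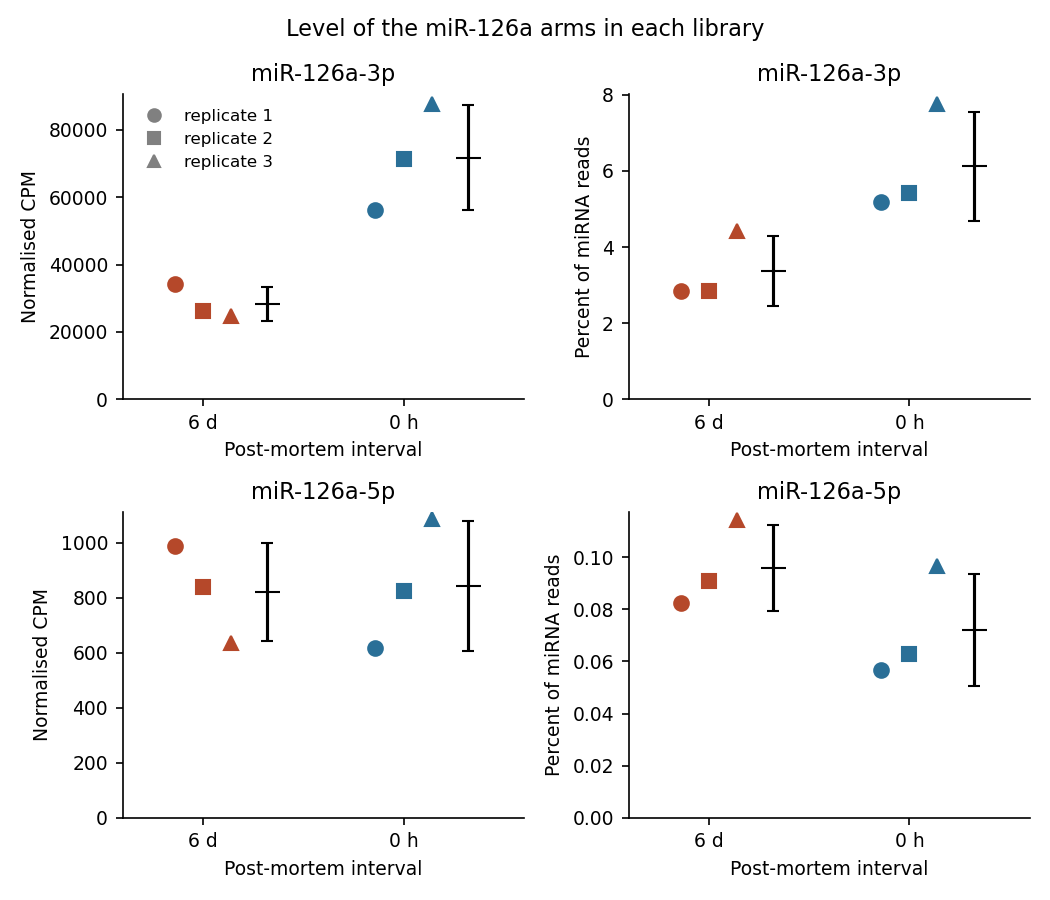
Level of miR-126a-3p (top) and miR-126a-5p (bottom) in each library, as normalised CPM (left) and as percent of all miRNA reads (right), with the 6 d libraries in red and the 0 h libraries in blue. Symbols mark replicates, and bars give the mean and SD (n = 3). All 6 d points of the 3p strand lie below all 0 h points in both units, and the 5p groups overlap.

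The balance between the arms, which needs no scaling of the libraries, moved toward the 5p strand at 6 d. The 5p strand made 2.82%, 3.09% and 2.51% of all miR-126a reads in 6 d replicates 1, 2 and 3, against 1.08%, 1.15% and 1.23% in 0 h replicates 1, 2 and 3. Every 6 d library lay above every 0 h library. The Wilson 95% interval was 2.34% to 2.70% for the lowest 6 d value and 1.20% to 1.26% for the highest 0 h value. These intervals cover counting error only and not the spread between libraries. Put the other way, there were 34.5, 31.4 and 38.8 reads of miR-126a-3p for each read of miR-126a-5p in 6 d replicates 1, 2 and 3, against 91.2, 86.2 and 80.5 in 0 h replicates 1, 2 and 3. The 3p strand remained the major product by far at both intervals.

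The arm ratio, log2 of 5p over 3p reads after adding 1 to both, averaged -5.12 ± 0.15 at 6 d and -6.42 ± 0.09 at 0 h (SD, n = 3 each). It rose by 1.31 ± 0.14 (SE, limma adjusted p = 0.0011 over 116 precursors), a 2.47-fold change with a 95% interval of 1.97 to 3.11. This is also the test of the difference between the changes of the strands. Among the 116 precursors with both arms tested, 38.8% were called, 19% toward 5p and 19.8% toward 3p, and 28.4% had all 6 d libraries above all 0 h libraries. For the 5p percentage an exact two-sided permutation test gave p = 0.1, the smallest possible, and 0.13 adjusted over 4 share measures. The call held in all 10 alternatives run, with a log2 change between 1.23 and 1.39.

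The size of the shift was moderate and its spread small. Among the 53 precursors whose arms both averaged 10 normalised CPM or more, miR-126a ranked 15th in change toward 5p, and 0 of the others had a smaller SE. Its neighbours in that order were miR-486a (1.51 ± 0.34, SE) and miR-339 (1.41 ± 0.48) above it, and miR-361 (1.24 ± 0.53) and miR-181c (1.22 ± 0.47) below it, and the 95% interval of each overlapped its own. The median change over the 53 precursors was 0.05. When these 53 were refitted and adjusted alone, 50.9% of them were called, 28.3% toward 5p and 22.6% toward 3p. Of 27 precursors among them whose 3p arm was the more abundant, 5 were called toward the minor 5p arm, miR-126a included, and 6 toward the major 3p arm. These last calls use the adjusted p over all 116 precursors.

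Precursors of other cell types moved in either direction. Of 10 listed, 7 had both arms tested. In heart muscle's miR-133a, which resembles miR-126a in having a major 3p arm, the arm ratio fell by 3.25 ± 0.50 (SE, limma adjusted p = 0.0017), opposite to miR-126a. In the fibroblast miR-199a it fell by 1.71 ± 0.25 (limma adjusted p = 0.0017), although the 3p rows of miR-199a and miR-199b share reads. For miR-199b the arm ratio changed by -0.68 ± 0.31 and was not called (limma adjusted p = 0.10). In the erythroid miR-486a it rose, there toward its major 5p arm (limma adjusted p = 0.010), although the rows of miR-486a and miR-486b share reads. For miR-486b the arm ratio changed by 1.37 ± 0.58 and was not called (limma adjusted p = 0.099). The smooth muscle miR-143 (0.33 ± 0.25) and miR-145a (0.36 ± 0.32), the leukocyte miR-142a (1.11 ± 0.57) and the erythroid miR-144 (1.18 ± 0.52) were not past the threshold. The other 3 listed, miR-1a-1, miR-451a and miR-24, had no pair of arms tested under that name. Outside that list, and picked after their values were seen, precursors of the same and other cell types differed from these. The leukocyte miR-223 (-1.74 ± 0.60) and the epithelial miR-200a (-3.21 ± 0.47) moved toward 3p (limma adjusted p = 0.049 and 0.0017), and the fibroblast miR-214 stood at 0.93 ± 0.59, not called. Also not called were the leukocyte miR-150 (1.17 ± 0.82) and the epithelial miR-200b (-0.94 ± 0.98). The heart muscle miR-208a, also with a major 3p arm, did not follow miR-133a (0.46 ± 0.48, limma adjusted p = 0.47). The minor arms of miR-223, miR-150, miR-200b and miR-208a averaged 7.59, 3.04, 1.48 and 4.14 normalised CPM, under 10.

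**Figure D2:**
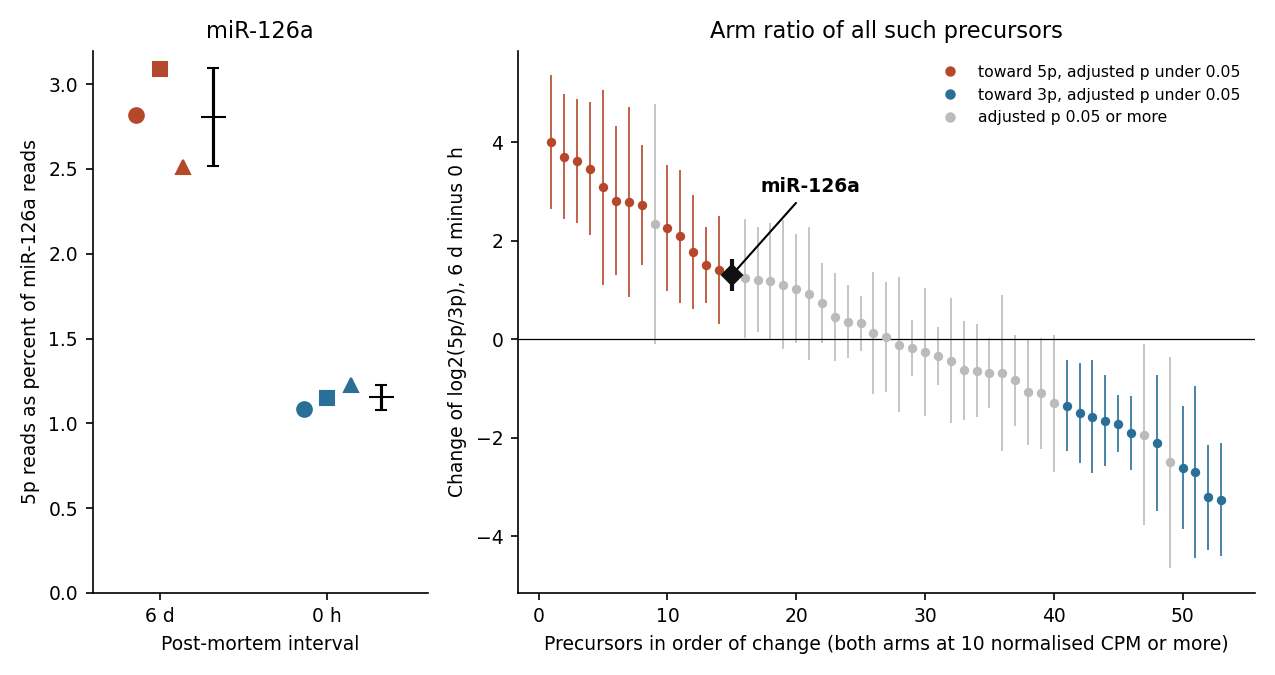
Left, 5p reads as percent of all miR-126a reads in each library, with mean and SD (n = 3). Right, change of log2(5p/3p), 6 d minus 0 h, with 95% intervals for the 53 precursors with both arms at 10 normalised CPM or more, in order of change and coloured by the adjusted p over all 116 precursors. miR-126a, the black diamond, has a moderate change and the narrowest interval.

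The sum of the strands is made almost wholly of 3p reads, so its change restates that of miR-126a-3p. It was 29185 ± 5192 normalised CPM at 6 d and 72538 ± 15869 at 0 h (SD, n = 3 each), a log2 fold change of -1.30 ± 0.32 (SE, limma adjusted p = 0.010). With library totals alone this change was -0.85 and missed the threshold (limma adjusted p = 0.11).

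By mean share, miR-126a-3p held place 6 at 6 d and place 5 at 0 h. At 6 d it stood between miR-99a-5p (3.38% ± 1.85) and let-7i-5p (3.26% ± 0.96), and its 3.37% ± 0.92 did not differ from either beyond the spread. At 0 h it stood below the smooth muscle miR-143-3p (6.62% ± 0.83) and above miR-378a-3p (3.81% ± 1.87), whose range of 2.08% to 5.80% reached into its own. miR-126a-5p held place 54 at 6 d, between miR-30e-5p and miR-140-3p, and place 56 at 0 h, between miR-328-3p and miR-133a-3p, all with overlapping ranges. Among the 50 miRNAs with a mean of at least 1000 normalised CPM, 21 were called lower and 8 higher at 6 d, and the fall of miR-126a-3p was 17th in size. Over all 470 tested miRNAs, its log2 fold change was the 97th lowest and that of miR-126a-5p the 287th.

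**Figure D3:**
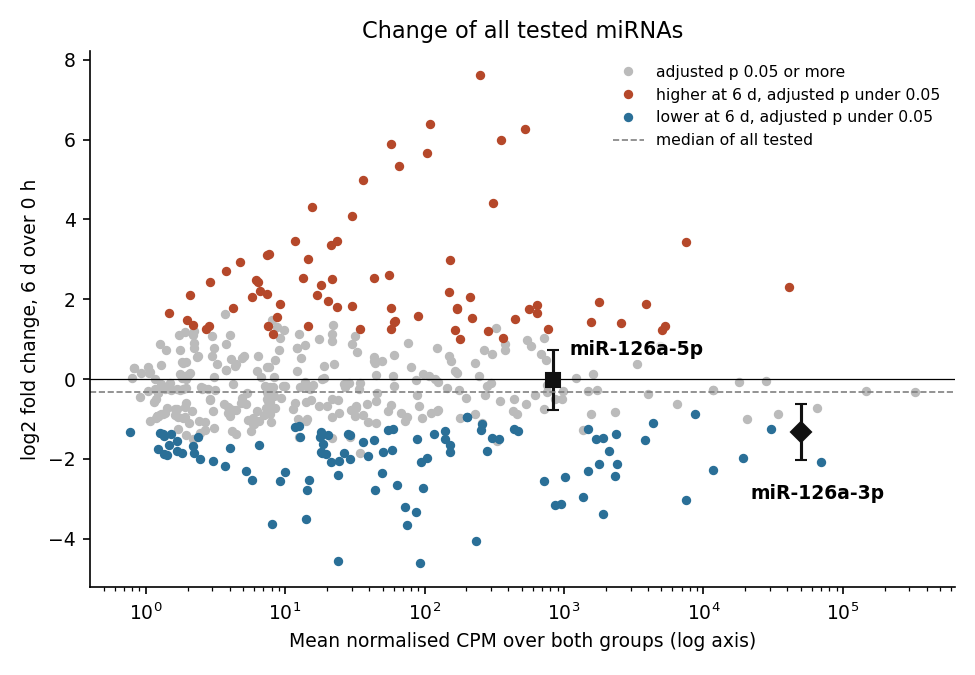
Log2 fold change of 6 d over 0 h against mean normalised CPM (log axis) for the 470 tested miRNAs, each a point, with the strands of miR-126a in black with 95% intervals. miR-126a-3p lies among the abundant miRNAs that fell, and the interval of miR-126a-5p spans 0.

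Ratios within a library set miR-126a against miRNAs of other cells without any scaling. With 7 partners for each strand, 14 ratios were compared, and every exact two-sided permutation p is bounded at 0.1 (0.16 after adjustment over the 14), so no ratio could pass the threshold. Against the heart muscle miR-1a-3p, the log2 ratio of miR-126a-3p was -3.97, -3.56 and -2.16 in 6 d replicates 1, 2 and 3, against -2.40, -2.78 and -1.52 in 0 h replicates 1, 2 and 3. The groups overlapped (exact permutation p = 0.3), and miR-1a-3p itself ranged from 19.8% to 44.3% of the reads at 6 d and from 22.3% to 37.1% at 0 h. Against the smooth muscle miR-143-3p the groups also overlapped, with a difference of -0.62 (exact permutation p = 0.2).

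Against 4 partners all 6 d libraries lay below all 0 h libraries, for both strands. The difference in log2 ratio for miR-126a-3p and miR-126a-5p was -3.63 and -2.32 against the erythroid miR-451a, -3.26 and -1.95 against miR-16-5p, which many cells contain, -2.61 and -1.30 against the leukocyte miR-142a-5p, and -2.17 and -0.86 against the fibroblast miR-199a-3p (exact permutation p = 0.1 each, the smallest possible). Without 0 h replicate 3 the differences for miR-126a-3p and miR-126a-5p were -1.86 and -0.51 against miR-142a-5p and -2.52 and -1.17 against miR-16-5p. Of these partners, miR-451a rose at 6 d by 2.3 and miR-16-5p by 1.93 on the log2 scale (limma adjusted p = 0.0011 and 0.022). The log2 fold changes of miR-142a-5p (1.27, limma adjusted p = 0.071) and miR-199a-3p (0.84, limma adjusted p = 0.057) were not past the threshold on the deposited scale. Other listed markers of these cells were not partners, and some had negative log2 fold changes. For erythroid cells these were 0.44 (miR-144-5p), -0.27 (miR-486a-5p) and -0.77 (miR-144-3p). For leukocytes they were 1.35 (miR-223-3p), 0.91 (miR-155-5p), 0.16 (miR-142a-3p) and -0.79 (miR-150-5p). For fibroblasts they were -0.87 (miR-199a-5p) and -1.59 (miR-214-3p, the only one of these called). The ratios thus describe the named partners and not whole cell types. How many other miRNAs separated against the same 4 partners was not counted. All 4 partners had positive log2 fold changes on the deposited scale. There the median over all tested miRNAs was -0.33, and miR-126a-5p stood at -0.02. The lower ratios to these partners are thus not by themselves particular to miR-126a, least of all for its 5p strand.

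miR-24-3p, which endothelial cells and many other cells contain, kept closest to miR-126a-3p among the 7 partners, and itself fell by 1.38 on the log2 scale (limma adjusted p = 0.0061). Their log2 ratio was 4.84, 4.41 and 4.03 in 6 d replicates 1, 2 and 3, against 4.18, 4.53 and 4.42 in 0 h replicates 1, 2 and 3. The means differed by 0.05 (exact permutation p = 1), but the 6 d libraries spread more widely, with an SD of 0.41 at 6 d and 0.18 at 0 h. The ratio of miR-126a-5p to miR-24-3p was higher in every 6 d library, by 1.36 on the log2 scale (exact permutation p = 0.1).

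**Figure D4:**
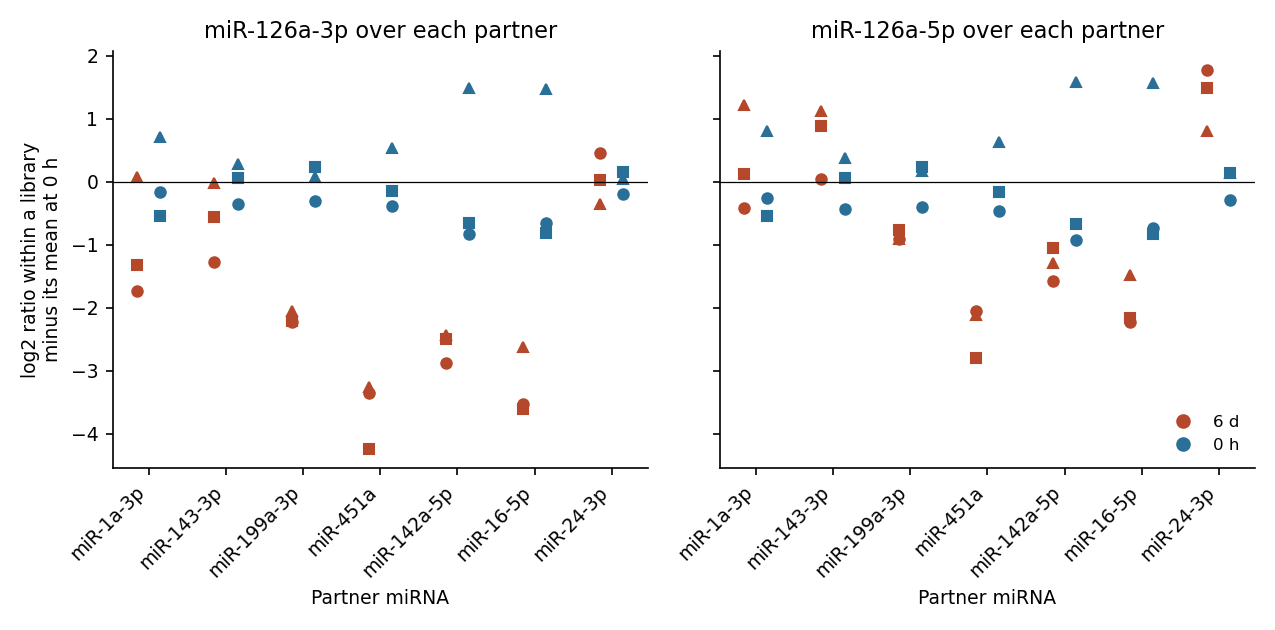
Log2 ratio of miR-126a-3p (left) and miR-126a-5p (right) to each partner miRNA within a library, minus its mean at 0 h, with 6 d libraries in red left of the 0 h libraries in blue and symbols for replicates. For miR-126a-3p the 6 d points lie lowest against miR-451a (-3.63 on average), and near 0 against miR-24-3p (0.05).

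A list of miRNAs known from blood vessels gave the surroundings of miR-126a. Of 22 listed, 21 had a row and 19 were tested, and 5 fell, 2 rose and 12 were not called. Without the strands of miR-126a these were 4, 2 and 11 of 17, so 23.5% fell and 11.8% rose, against 21.9% and 16% of all tested miRNAs. The median log2 fold change of these 17 was -0.47, against -0.33 over all 470. With library totals alone 0 of the 19, which include both strands of miR-126a, were called lower and 2 higher, and with edgeR 3 lower and 2 higher. Over all tested miRNAs, library totals alone called 40 lower and 83 higher of 472. There edgeR called 19.6% of 363 lower and 22% higher.

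The falls besides miR-126a-3p were of miR-24-3p (log2 fold change -1.38 ± 0.29, SE), of the hypoxia-responsive miR-210-3p (-1.30 ± 0.30), and of miR-27a-3p (-1.11 ± 0.34) and miR-27b-3p (-0.86 ± 0.30), which are made from the same clusters as miR-24 and are known from angiogenesis (limma adjusted p = 0.0061, 0.0088, 0.026 and 0.049). With edgeR, the adjusted p was 0.017 for miR-24-3p and 0.021 for miR-210-3p, but 0.056 for miR-27a-3p and 0.12 for miR-27b-3p. Also listed from those clusters, miR-23a-3p (0.62) and miR-23b-3p (-0.47) were not called on the deposited scale, and miR-23a-3p was called higher with RLE size factors (0.85, limma adjusted p = 0.048). Among the strands of the clusters outside the list, picked after their values were seen, miR-27a-5p (-2.40), miR-24-1-5p (-2.04) and miR-24-2-5p (-1.24) fell (limma adjusted p = 0.0031, 0.0023 and 0.013), and miR-27b-5p (-0.20) and miR-23b-5p (-0.09) were not called. The rises were of miR-222-3p (1.25 ± 0.32), which restrains endothelial migration through Kit, and of miR-92a-3p (1.20 ± 0.31), a member of the miR-17-92 cluster (limma adjusted p = 0.013 each). Both were also called with library totals alone, at 1.70 and 1.65. For miR-221-3p, encoded beside miR-222, the change was -0.10 and was not called.

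The profiles most like each strand differed. Likeness was the root mean square distance between log2(normalised CPM + 1) profiles over the 6 libraries, each centred on its own mean, among 274 other miRNAs averaging 10 normalised CPM or more, a measure in which all profiles share the same libraries and scaling. For miR-126a-3p the closest were miR-24-2-5p (distance 0.14), miR-674-5p (0.17) and miR-210-3p (0.18), where the median distance was 0.80. The first of these is a strand of a miR-24 hairpin, and it averaged 260 normalised CPM at 6 d and 617 at 0 h (log2 fold change -1.24, limma adjusted p = 0.013). miR-674-5p rests on 14, 4 and 7 reads in the 6 d libraries, so its place is uncertain. For miR-126a-5p the closest were miR-1843a-5p (0.15), let-7f-2-3p (0.21) and miR-27b-5p (0.21), with log2 fold changes of 0.20, 0.21 and -0.20, none of them called by limma. Near the floor of 10, let-7f-2-3p and miR-27b-5p averaged 13.4 and 11.9 normalised CPM at 6 d, so their places are uncertain too. miR-126a-5p itself came 98th in closeness to miR-126a-3p, at a distance of 0.66.

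**Figure D5:**
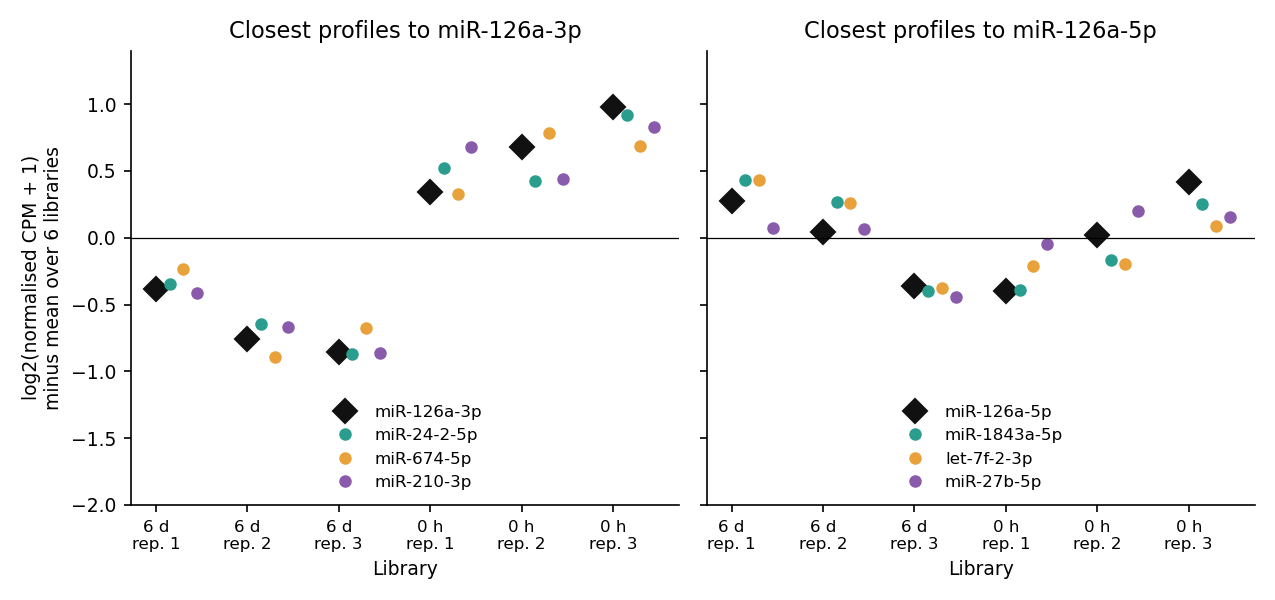
Centred log2(normalised CPM + 1) of miR-126a-3p (left) and miR-126a-5p (right), black diamonds, with the 3 closest other miRNAs as coloured points in each library, 6 d libraries left of 0 h libraries. The 3p strand and its neighbours lie below 0 in all 6 d libraries and above 0 in all 0 h libraries, and the 5p strand does not separate them.

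Markers of other cells differed at the same time. Over all 470 tested miRNAs, 16% were called higher and 21.9% lower on the deposited scale. With library totals alone 83 were called higher and 40 lower of 472, and with RLE size factors 90 and 84 of 468. With edgeR 22% of 363 were called higher and 19.6% lower. Single calls within a short list thus say little about a cell type. Of the 4 miRNAs listed for heart muscle, miR-133a-3p rose by 1.43 on the log2 scale, miR-208a-3p fell by 1.49, miR-499-5p fell by 1.48, and miR-1a-3p was not called (limma adjusted p = 0.0069, 0.024, 0.013 and 0.67). These 4 thus moved in different directions, while the skeletal muscle miR-206-3p rose by 6.27. Whether any of the 4 is particular to heart muscle was not tested. With library totals alone the rise of miR-133a-3p was still called (limma adjusted p = 0.014), and miR-208a-3p (-1.04) and miR-499-5p (-1.02) were not (limma adjusted p = 0.12 and 0.11). The summed share of 7 epithelial miRNAs was 0.152% to 0.279% at 6 d and 0.0124% to 0.0404% at 0 h, with 6 of 7 called higher. The liver miRNA miR-122-5p made 0.173% to 3.0% of reads at 6 d and 0.0508% to 0.125% at 0 h, and the skeletal muscle miRNA miR-206-3p 0.0813% to 0.156% at 6 d and 0.000740% to 0.00141% at 0 h. The 4 erythroid miRNAs summed to 6.40% to 11.4% at 6 d and 2.04% to 2.40% at 0 h, with miR-451a called higher and 3 not called. The 5 leukocyte miRNAs summed to 0.0707% to 0.136% at 6 d and 0.0418% to 0.0564% at 0 h with 0 called by limma on the deposited scale. With library totals alone limma called 2 of them higher, miR-142a-5p (adjusted p = 0.030) and miR-155-5p (adjusted p = 0.029), and with RLE size factors or edgeR the calls were miR-142a-5p and miR-223-3p, also higher. The 3 fibroblast miRNAs summed to 0.684% to 0.965% at 6 d and 0.266% to 0.433% at 0 h, with miR-214-3p called lower (log2 fold change -1.59, limma adjusted p = 0.0099) and 2 not called. The sum was mostly miR-199a-3p, which averaged 6316 normalised CPM at 6 d and 3506 at 0 h. miR-199a-5p was lower at 6 d, with means of 321 and 598 (log2 fold change -0.87, limma adjusted p = 0.057). With library totals alone miR-214-3p was not called (limma adjusted p = 0.098) and miR-199a-3p was called higher (1.30, limma adjusted p = 0.030), as it also was with RLE size factors and with edgeR. The 2 smooth muscle miRNAs summed to 4.69% to 7.52% at 6 d and 5.71% to 7.30% at 0 h, both not called. The part of these other cells in the lower share of miR-126a-3p was not tested, and the arm ratio is computed from miR-126a reads alone.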

How the data were processed

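The submitters' processing notes list STAR 2.5.3a, cutadapt 2.8, Trimmomatic 0.39 and FastQC without saying what each did. Counter, annotation and build used by the authors: not given in the sources used here. As deposited, the values of 0 h replicate 1 are raw counts of reads per mature miRNA, and those of the other 5 libraries are log2 numbers rounded to 3 decimals. The transform is not stated. Undoing log2(x + 1) gave whole multiples of 1 step per library for 2692 of 2692 testable values, within the rounding of 0.0005, so reads were recovered, the largest to within 0.0347%. The counts of 0 h replicate 1 were scaled to 1000000 and divided by a factor of 0.919, derived so that the 6 factors multiply to 1.

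The main test was limma 3.58.1 (trended, robust) on log2(normalised CPM + 1) over miRNAs with at least 1 normalised CPM in at least 3 libraries, with Benjamini-Hochberg adjustment over all 470 tested. Arm ratios were fitted likewise over 116 precursors. edgeR 4.0.16, DESeq2 1.42.0 and limma-voom on recovered reads, other scalings, pseudocounts and filters, thinning to 617069 reads, a replicate block and omission of each library were alternatives. Single values were compared by exact two-sided permutation tests (scipy 1.17.1), and the hairpin was folded with ViennaRNA 2.7.2. The limma and arm ratio steps were also run on data simulated from the 0 h means with changes of either sign. No result given here rests on that run. The named miRNAs are both strands, miR-126b, the 3 closest profiles and the neighbours in level and arm ratio of each, and vascular and cell marker lists. Members and lists were chosen with earlier results of these data known.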

Additional observations from a re-analysis of the deposited data

How the results depend on the processing

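The fall of miR-126a-3p kept its direction in all alternatives run, and with all libraries kept its call was lost only with library totals alone (log2 fold change -0.87). With 1 library left out it ranged from -1.49 to -1.17 and stayed called. Leaving out libraries under edgeR and under library totals was added after seeing the data. With edgeR and 1 library left out the change ranged from -1.41 to -0.94 and the adjusted p from 0.027 to 0.072, past the threshold in 3 of 6 and lost without 0 h replicate 3 (-0.99), 6 d replicate 2 (-0.98) or 6 d replicate 3 (-0.94). With library totals alone and 1 library left out it was -0.98, -0.95 and -0.69 without 0 h replicate 1, 2 or 3 and -0.76, -0.76 and -1.08 without 6 d replicate 1, 2 or 3, and was called only without 6 d replicate 3 (adjusted p = 0.032), the library with the largest factor. The sum of both strands lost its call with library totals alone (-0.85) and ranged from -1.47 to -1.15 with 1 library left out. The change of miR-126a-5p, never past the threshold, turned positive with library totals alone (0.44), RLE size factors (0.20), edgeR (0.089), DESeq2 (0.18), limma-voom (0.14) and thinning (0.36), and ranged from -0.23 to 0.18 with 1 library left out. The arm ratio change stayed called and ranged from 1.23 to 1.39 with 1 library left out. Also with 1 library left out, the difference in log2 ratio to miR-24-3p of miR-126a-3p ranged from -0.16 to 0.25, and that to miR-1a-3p of miR-126a-5p from -0.15 to 0.71. Differences in share ranged from -3.28 to -1.93 percentage points for miR-126a-3p, from 0.014 to 0.036 for miR-126a-5p and from 1.51 to 1.80 for the 5p part of miR-126a reads. Called miRNAs numbered 178, or 114 to 179 with 1 library left out (114 without 0 h replicate 1), split 75 higher and 103 lower on the deposited scale and 83 and 40 with library totals alone. Called arm ratios numbered 45, 27 with both arms at 10 normalised CPM or more, where 53 were tested, and 25 to 40 with 1 library left out (25 without 0 h replicate 1). The cause was not tested.

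With the replicate block, miR-126a-3p was at -1.33 (adjusted p = 0.016), the arm ratio at 1.31 (adjusted p = 0.00073) and 195 miRNAs were called. The deviations of libraries sharing a number had correlations of 0.068, 0.064 and 0.27, too low in 2 of 3 to treat the numbers as a pairing. Thinned to the smallest library, miR-126a-3p was at -0.93 (adjusted p = 0.030). The 5p strand had 635 to 1554 reads at 6 d, and 3 against 3 libraries limit the exact tests to p = 0.1.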
